A study of Homo sapiens with 15 samples.

Results

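The genes described here are the protein-coding genes of the distal long arm of chromosome 4 (4q), defined as genes that start at or beyond 100 Mb on the GRCh38 build and hold at least 10 raw counts in at least 7 of the 15 libraries. A few genes were left out by name, whatever their values, such as those whose symbols begin with COL, RPL, RPS, NDUF or ATP5. This gave 185 members among the 28395 genes of the count table. The table held 283 coding genes of the segment, of which 94 were under the count minimum and 4 were left out by name. The segment was selected on measured values, the log2 fold changes of its genes between the groups of these same libraries, so the shared shift is given below as a description, and no test is made of it. All 185 members passed the filter on low counts and were tested, among them 163 with at least 10 counts in every library and 22 with that count in only part of them.

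BEAS-2B, a bronchial epithelial cell line of human origin, was kept in medium with 50 µg/mL of polyethylene terephthalate nanoplastics (PET-NPLs) for 24 h, 15 weeks or 30 weeks, and passage-matched cells without particles were the controls. Total RNA depleted of ribosomal RNA was sequenced. Each arm had 2 samples at 24 h and 2 at 15 weeks, and at 30 weeks there were 3 controls and 4 exposed samples. All samples are of this 1 line, and the labels do not say whether replicates came from separate cultures, so the p-values measure only the spread between these samples, which may be technical. By the labels, batch 1 holds every sample of 24 h and 15 weeks and batch 2 every sample of 30 weeks. Each comparison of exposed with control cells thus lies within 1 batch, while 30 weeks and batch 2 cannot be told apart.

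Genes of one chromosome arm are as a rule regulated separately, each by its own promoter and enhancers. The RNA of most genes also follows the number of copies of the arm, which was not measured here, so neighbouring genes are often summarised together. Distal 4q carries genes of many functions, such as cyclin A2, the cystine transporter subunit SLC7A11, sterol and fatty acid enzymes, the cGMP signalling genes GUCY1B1 and PDE5A, and actin-binding proteins of muscle and stroma.

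The libraries held 23143202 to 31459990 counts on genes. The line expressed KRT8 and KRT18, with summed airway epithelium markers of 771.7 to 1096 CPM (counts scaled to the library total after its TMM adjustment) in every group but the 30-week controls, which had 313 to 410 (12 markers, of which EPCAM, CDH1, KRT5, KRT14, TP63, NKX2-1, SCGB1A1, FOXJ1 and MUC5B stayed under 1 CPM in every library). The 9 skeletal muscle markers summed to 318 to 408 CPM in the 30-week controls and to 17.1 to 43.7 CPM elsewhere. TNNT1 reached 235.4 CPM, MYOD1 105.8 and CHRNA1 48.5. MYOG reached only 3.19 CPM, DES 1.90 and MYMK 0.47, and MYF5 was at 0 in every library. The 8 fibroblast and mesenchyme markers summed to 1983 to 2446 CPM in the 30-week controls, against 1621 to 1846 in exposed cells at that time and 1351 to 1787 earlier. Most of that sum was VIM (1030 to 1877 CPM). THY1 ran from 187 to 420 CPM, PDGFRB from 11.1 to 119.5, ZEB1 from 12.05 to 51.3 and TWIST1 from 10.2 to 28.3. PDGFRA, DCN and LUM stayed under 1 CPM in every library. The 5 endothelial and blood markers stayed between 6.61 and 31.2 CPM in sum. Nearly all of it was CD68 (6.16 to 30.7 CPM), while PECAM1, CDH5 and PTPRC stayed under 1 CPM. A set of 6 abundant small RNAs took 22.3% to 31.0% of the counts in the 30-week controls, 17.0% to 21.5% in exposed cells at 30 weeks and 9.75% to 12.9% before. The part of these differences in the results at 30 weeks was not tested, beyond the fits without those RNAs named in the closing section. In bulk RNA, fewer cells of a type and less RNA per cell cannot be told apart.

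The members differed from other expressed coding genes in features that the rule did not use. Their longest coding transcript had a median GC content of 40.9%, against 48.4% over the 13130 coding genes with the same count minimum, and 168 of the 183 members with a value fell in the 5 lowest deciles of GC. Their genes spanned a median of 63.0 kb against 30.5 kb. Their promoters did not stand out in the same way. Of the 159 members matched in the RefSeq table (GRCh38.p14, windows from 250 bases before to 50 after the start), the median promoter GC was 64.0% against 65.0%. On either strand, GGGCGG stood in 69.2% of them (69.7% of expressed coding genes and 44.6% of all promoters), CCAAT in 39.0% (36.6% and 35.7%), TATAAA in 5.66% (6.04% and 12.0%), and TGANTCA in 4.4% (4.44% and 7.76%).

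The 250 bases before the start are shown for 5 members. At 30 weeks 2 were much higher and 2 much lower in exposed than in control cells. The last is ANXA5, a member with many reads that followed the shared shift. All are on chromosome 4 of GRCh38.p14, written 5′ to 3′ on the strand of the gene, with capitals for GGGCGG and for CCAAT, read on either strand. The windows are chr4:139280226-139280475 (minus strand) for MGARP, chr4:152679998-152680247 (minus) for TMEM154, chr4:155758771-155759020 (plus) for GUCY1B1, chr4:185535508-185535757 (minus) for PDLIM3 and chr4:121696981-121697230 (minus) for ANXA5.
MGARP: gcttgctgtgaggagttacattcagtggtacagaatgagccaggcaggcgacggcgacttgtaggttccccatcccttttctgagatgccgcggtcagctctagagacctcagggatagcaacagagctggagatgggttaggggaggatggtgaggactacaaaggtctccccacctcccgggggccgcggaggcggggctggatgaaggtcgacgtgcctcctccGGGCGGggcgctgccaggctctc
TMEM154: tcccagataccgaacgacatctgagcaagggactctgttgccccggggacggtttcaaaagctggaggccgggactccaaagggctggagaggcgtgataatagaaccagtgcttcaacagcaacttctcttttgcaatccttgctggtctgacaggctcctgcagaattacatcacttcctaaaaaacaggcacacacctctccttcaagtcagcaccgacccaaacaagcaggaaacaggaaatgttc
GUCY1B1: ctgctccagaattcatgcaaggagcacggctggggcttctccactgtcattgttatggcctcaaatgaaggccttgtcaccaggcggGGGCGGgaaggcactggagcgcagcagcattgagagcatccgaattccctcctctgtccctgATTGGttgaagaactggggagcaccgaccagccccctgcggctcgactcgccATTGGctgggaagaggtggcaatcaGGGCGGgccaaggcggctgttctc
PDLIM3: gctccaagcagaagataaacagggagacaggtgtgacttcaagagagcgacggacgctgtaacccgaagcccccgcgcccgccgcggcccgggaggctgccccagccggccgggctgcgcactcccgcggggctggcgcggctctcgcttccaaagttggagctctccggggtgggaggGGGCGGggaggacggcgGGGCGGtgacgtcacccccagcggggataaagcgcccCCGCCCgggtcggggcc
ANXA5: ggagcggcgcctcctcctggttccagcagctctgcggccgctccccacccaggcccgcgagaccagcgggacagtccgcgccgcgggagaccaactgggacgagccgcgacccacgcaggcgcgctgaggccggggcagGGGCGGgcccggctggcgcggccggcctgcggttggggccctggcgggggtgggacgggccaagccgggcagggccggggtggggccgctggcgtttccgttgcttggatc
The TMEM154 window held none of the 4 motifs and had 51.2% GC, and the MGARP window held 1 GGGCGG at 62.4% GC. The windows of the 2 much lower genes held 2 GGGCGG and 2 CCAAT (GUCY1B1, 60.8% GC) and 3 GGGCGG (PDLIM3, 73.6% GC), and that of ANXA5 held 1 GGGCGG at 78.8% GC. Such matches describe letters and are not binding sites.

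The shared shift of the members was measured in each library as their median log2 CPM relative to the 24 h controls, minus the same median over tested genes off chromosome 4. The 24 h libraries lay together, with shifts of −0.02 and 0.02 in the controls and −0.001 and −0.04 in exposed cells. At 15 weeks both arms were lower, with −0.45 and −0.48 in the controls and −0.52 and −0.61 in exposed cells, and the arms did not overlap. At 30 weeks the controls had −0.57, −0.44 and −0.82, and the exposed samples −1.20, −0.62, −1.16 and −1.12. Exposed replicate 2 thus lay inside the range of the controls, and the other 3 exposed samples below it. The members took 0.984% ± 0.009 of all counts in the 24 h controls (SD, n = 2). The 24 h exposed cells had 0.955% ± 0.022 (n = 2). The 15-week arms had 0.709% ± 0.004 in controls and 0.686% ± 0.005 in exposed cells (n = 2 each). At 30 weeks the controls had 0.513% ± 0.072 (n = 3) and exposed cells 0.441% ± 0.056 (n = 4). The lower share at 30 weeks was thus found in both arms, and the step from 15 weeks crosses the batches. Shares were not corrected for the abundant small RNAs, which took more of the counts at 30 weeks.

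**Figure D1:**
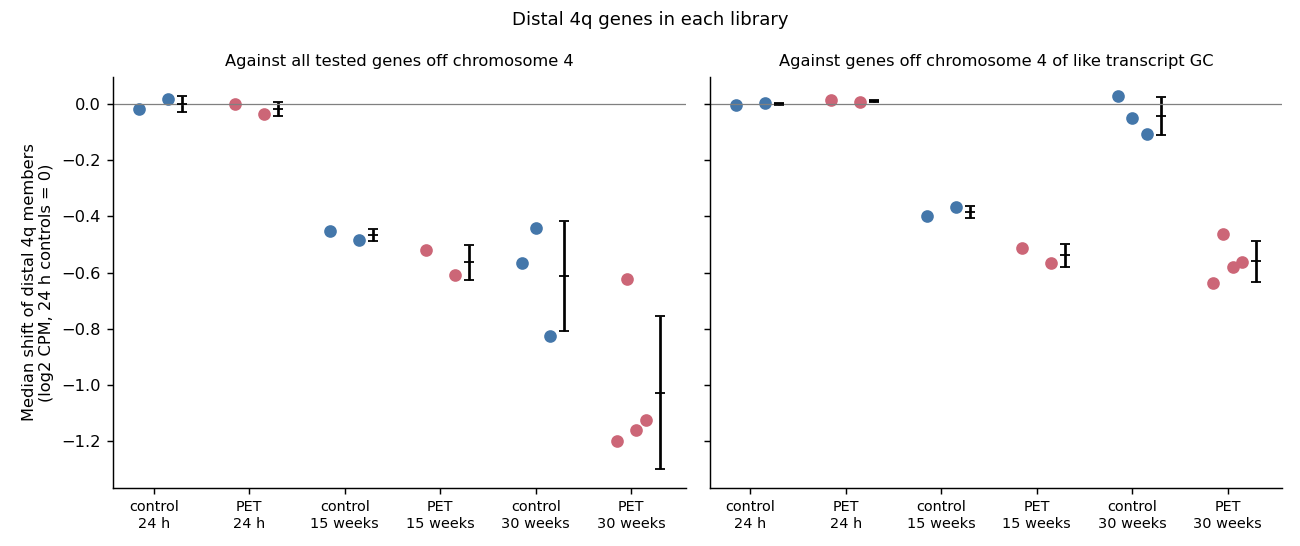
Median shift of the 185 distal 4q genes in each library (log2 CPM, 24 h controls at 0), against all tested genes off chromosome 4 (left) and against genes off chromosome 4 in the same decile of transcript GC (right). Points are libraries, blue for controls and red for cells exposed to PET-NPLs, and bars are the mean ± SD; at 30 weeks the arms overlap on the left and not on the right.

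Because the members are low in GC, the same shift was also taken against genes off chromosome 4 in the same decile of transcript GC, a choice made after seeing the data. Off chromosome 4, the change of the controls from 15 to 30 weeks, which crosses the batches, had a median of −0.53 in the lowest decile, −0.62 in the next and 0.49 in decile 8 (log2), and that of exposed cells −0.60, −0.57 and 0.50. Within batch 1 the span was smaller, from −0.16 to 0.14 in the controls from 24 h to 15 weeks. Against genes of like GC, the shift was −0.40 and −0.37 in the 15-week controls, −0.51 and −0.57 in exposed cells at 15 weeks, 0.03, −0.05 and −0.11 in the 30-week controls, and −0.64, −0.46, −0.58 and −0.56 in exposed cells at 30 weeks. On this scale the 30-week controls lay close to the 24 h cells, all 4 exposed samples at 30 weeks lay below every control of that time, and replicate 2 no longer stood apart. Group means were −0.38 ± 0.02 (SD, n = 2) and −0.54 ± 0.04 (n = 2) at 15 weeks, and −0.04 ± 0.07 (n = 3) and −0.56 ± 0.07 (n = 4) at 30 weeks, controls first.

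**Figure D2:**
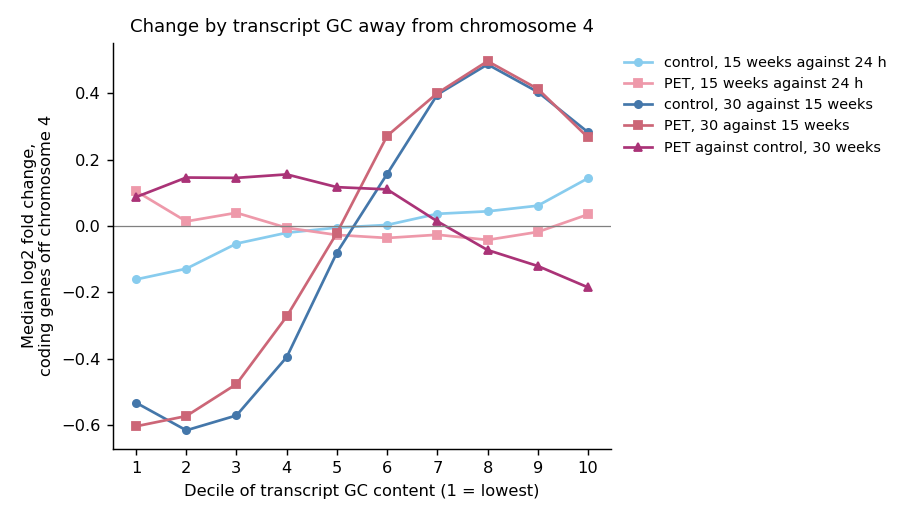
Median log2 fold change of coding genes off chromosome 4 in each decile of transcript GC (1 is the lowest), for 5 comparisons drawn as lines. The 2 comparisons of 30 with 15 weeks run from about −0.6 in the lowest deciles to 0.49 and 0.50 in decile 8, and the 3 within a batch stay between −0.19 and 0.16.

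Over the first 15 weeks the members fell in control and in exposed cells alike. In the controls, 74 of the 185 members fell and 12 rose at an adjusted p under 0.05 (edgeR quasi-likelihood test, Benjamini-Hochberg over the 16740 genes tested), where over all genes 12.2% fell and 12.7% rose. Their median log2 fold change was −0.48, 149 of 185 were below 0, and the median of all genes was −0.02. In exposed cells, 77 members fell and 12 rose, against 12.5% and 13.5% of all genes, with a median of −0.54 and 156 of 185 below 0. The median relative to genes of like GC was −0.38 and −0.56. The 2 comparisons share no library, and the members' log2 fold changes in them correlated at r = 0.95 across the 185 genes, against 0.83 across all 16740 genes, with batch, cell line and depth in common. The 16740 genes also include non-coding genes and genes under the members' count minimum, so the 2 sets are unlike. Without control replicate 2 at 15 weeks the members called in the controls went from 86 to 56, and the share of all genes called from 24.9% to 14.3%. Without exposed replicate 2 at 15 weeks those called in exposed cells went from 89 to 59, and the share of all genes from 26% to 14.6%.

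**Figure D3:**
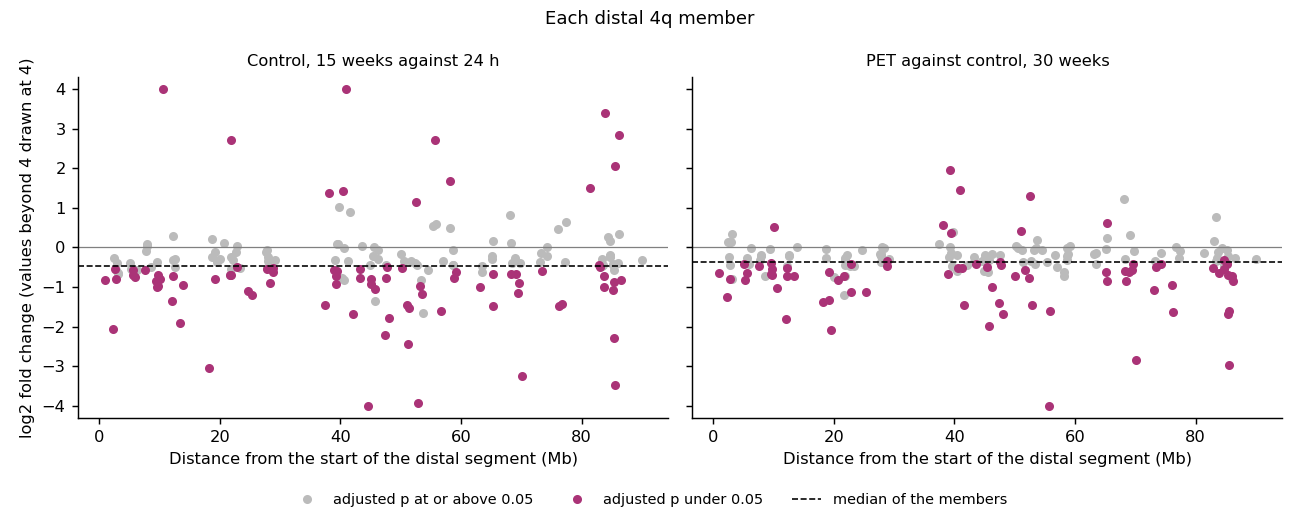
Log2 fold change of each of the 185 members against its distance from the start of the segment, for controls at 15 weeks against 24 h (left) and exposed against control cells at 30 weeks (right). Purple points have an adjusted p under 0.05 and the dashed line is the members' median, −0.48 on the left and −0.37 on the right; most points on both sides lie below 0.

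Single members moved much further than the median over those 15 weeks. HHIP, which binds and restrains hedgehog ligands, had 11.5 and 9.38 CPM in the 24 h controls and 0.41 and 0.62 at 15 weeks (log2 fold change −4.32 ± 0.42 SE, adjusted p = 1.8e-06). FHDC1, a formin-domain protein, went from 28.0 and 19.9 CPM to 0.88 and 2.24 (−3.92 ± 0.34, 5.7e-07). SORBS2, an adaptor of actin structures, went from 3.15 and 2.69 CPM to 0.28 and 0.24 (−3.47 ± 0.46, 3.9e-05). AADAT, an aminotransferase of lysine and tryptophan breakdown, and PRSS12, the protease neurotrypsin, changed by −3.26 and −3.04. In each of these genes the groups did not overlap.

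The members that rose went against the rest of the segment, and some of those with large called rises, at least 1 CPM on average and no overlap are given here with SLC7A11. RNF150, a RING finger gene, had 0.55 and 0.11 CPM in the 24 h controls and 11.8 and 12.8 at 15 weeks (5.20 ± 0.49, 1.3e-06). SLC7A11, the transport subunit that imports cystine for glutathione synthesis, had 20.1 and 23.8 CPM and then 58.7 and 55.9 (1.38 ± 0.15, 6.9e-06), and in exposed cells 23.0 and 19.6 and then 67.0 and 79.3. STOX2 and the teneurin TENM3 rose by 3.38 and 1.5 (log2) in the controls. These 4 genes also rose in exposed cells.

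At 24 h no member differed between exposed and control cells by the test. None passed the threshold in either direction in edgeR, where 0% of all genes did, or in any other fit run at 24 h, and 0 had an unadjusted p under 0.05. The median was −0.03, and 108 of 185 members were below 0. At 15 weeks again no member passed in edgeR, where 0% of all genes did, and 11 had an unadjusted p under 0.05. With each time point fitted alone 4 members passed, and 1.96% of all genes did. The median was −0.07 with 128 of 185 below 0, and −0.17 with 154 of 183 below 0 against genes of like GC.

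At 30 weeks the members were lower in exposed than in control cells. Here 69 members fell and 8 rose, where 11.7% of all genes fell and 12.0% rose. At 30 weeks, fell and rose mean lower and higher in exposed cells than in controls of that time, not a change over weeks. Of the members listed below as fallen, CAMK2D, PPP3CA, SLC39A8, DCTD, GATB, SLC25A4, NOCT, PALLD and PDLIM3 were called higher in exposed cells at 30 than at 15 weeks. Others, such as GUCY1B1, PDE5A, CPE and TET2, were called lower in that comparison, which crosses the batches. The median was −0.37, with 161 of 185 below 0, against a median of 0.01 over all genes, and against genes of like GC it was −0.50 with 166 of 183 below 0. In 63 members the 4 exposed samples lay below all 3 controls, which 13.0% of all genes did. These counts belong to the contrast that chose the segment and are a description. Exposed replicate 2 set much of the count: without it 120 members fell and 7 rose, where 18% and 16.2% of all genes did. With GC offsets in the fit 119 fell and 6 rose, where 13.7% and 11.6% of all genes did, and 75 of the 77 called members were called in both fits. The summed skeletal muscle markers were 318 to 408 CPM in these controls and 31.9 to 43.7 in exposed cells. Both arms at 24 h and 15 weeks held 17.1 to 42.7, so only the 30-week controls stood apart. The part of these markers in the members' fall was not tested.

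Of the 15 members on the growth factor and signalling list, 7 fell at 30 weeks (CAMK2D, EDNRA, GUCY1B1, NR3C2, PDE5A, PPP3CA and SMAD1) and none rose. Beside this and each list below, 11.7% of all genes and 37.3% of the 185 members fell at 30 weeks. The shares that rose were 12.0% and 4.32%. No list was tested against these shares, so the counts are no result about a function. GUCY1B1, a subunit of the guanylate cyclase that answers nitric oxide, had 2.84, 2.42 and 3.08 CPM in the controls and 0.07, 0.21, 0.03 and 0.35 in exposed cells (−4.02 ± 0.42, edgeR adjusted p = 4.0e-06). Its exposed values rest on 2, 6, 1 and 10 counts, so the size of its change is imprecise (−4.66 to −3.68 over its alternatives). PDE5A, which breaks cGMP down, had 10.6, 11.8 and 9.63 CPM against 2.17, 2.73, 2.26 and 2.78 (−2.10 ± 0.19, 9.0e-07). NR3C2, the mineralocorticoid receptor, had 4.43, 4.73 and 5.08 against 1.45, 2.31, 1.18 and 0.99 (−1.68 ± 0.24, 9.5e-05), and EDNRA, an endothelin receptor, had 1.20, 1.16 and 0.72 against 0.47, 0.42, 0.31 and 0.32 (−1.42 ± 0.30, 0.003). In all 4 genes every exposed sample lay below every control. PPP3CA, the calcineurin catalytic subunit, changed by −0.66 and PDGFC, a platelet-derived growth factor, by −0.19, the latter not past the threshold. PDGFC had 94.1 and 101 CPM in the 24 h controls and 19.9 to 32.5 in every 15 and 30-week control and exposed sample save 1 exposed sample at 34.9, so its main step was over the first 15 weeks (−1.60 ± 0.16 in controls).

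Of the cytoskeletal and adhesion genes more fell than rose. Of 12 members on the adhesion, cytoskeleton and muscle list, 6 fell (ANXA5, ARHGAP10, FAT4, PALLD, PDLIM3 and SORBS2) and 1 rose (SH3D19). PDLIM3, a LIM protein that binds actinin and is known from muscle, had 0.17 to 1.11 CPM in the controls of 24 h and 15 weeks, 8.73, 11.7 and 11.8 in the 30-week controls and 1.52, 1.68, 0.94 and 1.30 in exposed cells (−2.98 ± 0.23, 1.3e-07). PALLD, the actin organiser palladin, had 193, 181 and 204 CPM against 119.7, 92.6, 109 and 109 (−0.84 ± 0.13, 0.00019), where the earlier libraries held 56.5 to 97.5. In both genes the exposed cells of 30 weeks were above those of 15 weeks and below their own controls. ANXA5, which binds phosphatidylserine, had 536, 528 and 446 CPM against 294, 403, 279 and 252 (−0.71 ± 0.15, 0.0023). FAT1, a giant protocadherin, had 769.8 and 694 CPM in the 24 h controls and 393 and 431 at 15 weeks (−0.83 ± 0.17, 0.0019), and changed by −0.27 ± 0.13 at 30 weeks (0.15).

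Of the 22 members on the secretory pathway and protein turnover list, 9 fell at 30 weeks (CLCN3, CPE, CTSO, FBXW7, GALNT7, KLHL2, SLC39A8, SPCS3 and USP53), none rose and 13 did not pass. SPCS3, a subunit of the signal peptidase complex, had 375 and 449 CPM in the 24 h controls, 150 and 144 in the 15-week controls, and 434.5, 412 and 299.6 in the 30-week controls, against 110.3, 159, 116 and 111 in exposed cells (−1.62 ± 0.17, 3.0e-06). The exposed cells of 15 weeks had 168 and 124, so of the later groups the 30-week controls lay nearest to the 24 h cells. OSTC, of the oligosaccharyltransferase complex, changed by −0.73 and did not pass, and its adjusted p ran from 1.7e-05 to 0.45 over its alternatives.

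**Figure D4:**
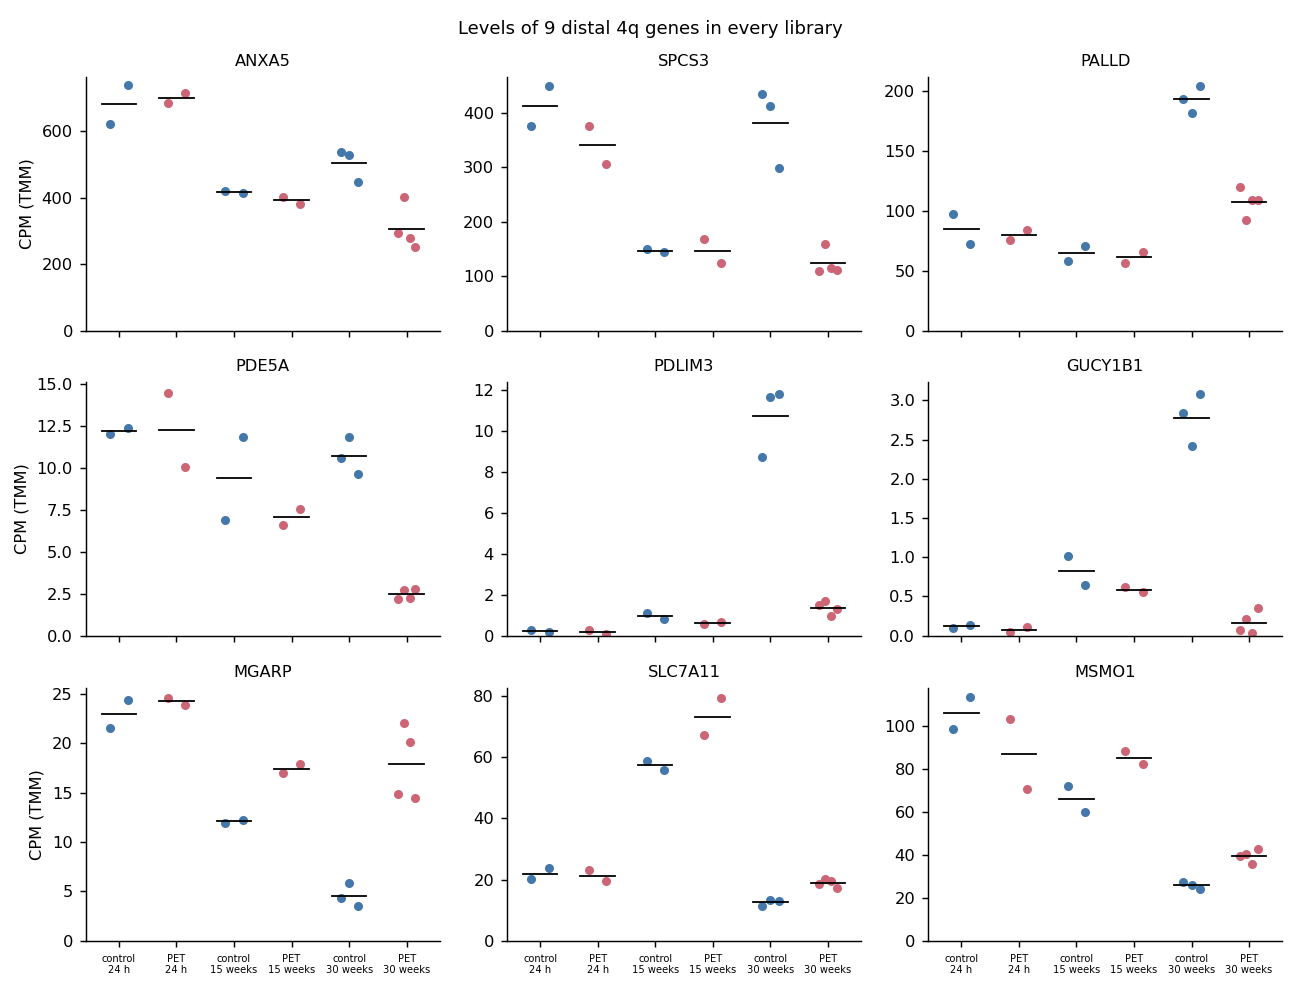
CPM (TMM-scaled) of 9 members in every library, on linear axes from 0. Points are libraries, blue for controls and red for exposed cells, and lines are group means; ANXA5, SPCS3, PALLD, PDE5A, PDLIM3 and GUCY1B1 are lower and MGARP, SLC7A11 and MSMO1 higher in the 4 exposed samples than in the 3 controls at 30 weeks.

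Of 22 members on the metabolism and mitochondria list, 11 fell (AADAT, ACSL1, CBR4, CISD2, CYP4V2, DCTD, GATB, MCUB, PAPSS1, PPA2 and SLC25A4) and 3 rose (ELOVL6, MSMO1 and SLC7A11). AADAT met the count minimum only through the 24 h libraries and the 30-week controls (19, 29 and 30 counts, against 1, 8, 2 and 4 in exposed cells). The 3 that rose serve fatty acid elongation, cholesterol synthesis and cystine import. MSMO1 had 27.3, 26.1 and 24.2 CPM in controls against 39.7, 40.4, 35.9 and 43.1 in exposed cells (0.62 ± 0.13, 0.0031), ELOVL6 had 9.50, 12.5 and 11.8 against 17.4, 16.6, 14.5 and 16.4 (0.53 ± 0.12, 0.0050), and SLC7A11 had 11.5, 13.5 and 13.1 against 18.7, 20.1, 19.5 and 17.1 (0.57 ± 0.12, 0.0025). All 3 stood above the controls at 30 weeks while both arms lay below their own 15-week levels. MGARP, a mitochondrial protein linked to organelle transport, rose most: 4.34, 5.85 and 3.58 CPM against 14.9, 22.1, 20.2 and 14.5 (1.96 ± 0.19, 1.2e-06). In raw counts the 24 h and 15-week libraries held 379 to 695 and exposed cells at 30 weeks 410 to 630. The 30-week controls held 100 to 162, so only they stood apart, in a comparison that crosses the batches. RNF150 and TMEM154 rose by 1.45 and 1.31, and exposed replicate 2 was the lowest of its group for RNF150 (5.33 CPM, others 9.21 to 9.34). Of the fallers, PPA2, a mitochondrial pyrophosphatase, changed by −0.82 with exposed replicate 2 at 78.2 CPM among controls of 58.5 to 96.7, and its adjusted p ran from 4.8e-07 to 0.12 over its alternatives.

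Among cell division genes 4 of 9 members fell (CENPU, CEP44, NEK1 and SCLT1) and none rose. CCNA2, the S and G2 phase cyclin, had 256 and 291 CPM in the 24 h controls, 169 and 167 at 15 weeks and 93.0 to 115 at 30 weeks, against 70.9, 129, 74.2 and 77.6 in exposed cells (−0.27 ± 0.17, 0.29). CENPE, a kinetochore motor, was the 1 member of the list above 0 in exposed cells (0.35 ± 0.20, 0.24), and MAD2L1, of the spindle checkpoint, changed by −0.75 ± 0.35 at 30 weeks (0.14). In CCNA2 and MAD2L1 exposed replicate 2 was above the other 3 exposed samples, and without that library both passed. Among 14 members for DNA repair and chromatin, JADE1, SAP30, SMARCA5 and TET2 fell and SETD7, a lysine methyltransferase, changed by 0.36 ± 0.12 (0.040), a call lost in 8 of 19 alternatives (highest adjusted p = 0.15). SMARCA5, an ISWI remodeller, had 117, 122 and 114 CPM against 92.4, 101, 70.7 and 87.9 (−0.42 ± 0.12, 0.015, and 0.075 with the time point fitted alone). TET2, which oxidises methylated cytosine, changed by −0.42 ± 0.13 (0.025). HMGB2, a chromatin-bending protein, changed by −0.35 ± 0.19 (0.21), with replicate 2 at 159.6 CPM and the other exposed samples at 79.0 to 89.1.

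Of 11 innate immunity members, 5 fell at 30 weeks (ALPK1, DDX60L, IL15, TIFA and TLR3) and none rose. IL15, a cytokine of lymphocyte survival, had 5.98, 6.50 and 4.295 CPM in controls against 1.56, 2.91, 1.98 and 1.73 (−1.45 ± 0.26, 0.00067), TIFA, an adaptor of ALPK1 signalling, changed by −0.52 ± 0.14 (0.016) and TLR3, a sensor of double-stranded RNA, by −0.73 ± 0.20 (0.016). The raw counts of IL15 were 24 to 44 at 24 h and 62 to 81 at 15 weeks. At 30 weeks they were 120 to 180 in controls and 43 to 83 in exposed cells. From 15 to 30 weeks, across the batches, IL15 and TIFA were called higher in controls and were not called in exposed cells. NFKB1, the precursor of the p50 subunit, changed by 0.13 ± 0.12 (0.48), with no alternative past the threshold. CASP6, a caspase, fell (−0.40 ± 0.11, 0.016, and up to 0.064 over its alternatives). Of 15 RNA processing and translation members, GAR1, LSM6 and NOCT fell and none rose. GAR1, of the snoRNP that guides pseudouridylation, had 6.11, 6.03 and 7.37 CPM against 3.98, 4.91, 3.55 and 3.63 (−0.70 ± 0.17, 0.0063). ABCE1, a ribosome recycling factor, changed by −0.28 ± 0.22 (0.39). The lists cover 122 of the 185 members, and 63 are on none of them.

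The change from 15 to 30 weeks differs between counting as deposited and counting against genes of like GC. In the controls 44 members rose and 49 fell, where 25.6% of all genes rose and 24.6% fell, and the median was −0.07. Against genes of like GC the median was 0.34 with 130 of 183 above 0, and with GC offsets 86 members rose and 22 fell, where 23.7% and 22.3% of all genes did. In exposed cells 19 rose and 77 fell, where 23.3% and 22.7% of all genes did, with a median of −0.37 as deposited and 0.04 against genes of like GC, and with GC offsets 38 rose and 35 fell, where 19% and 19.4% did. Without exposed replicate 1 at 15 weeks the members called in exposed cells went from 96 to 59, and the share of all genes called from 46% to 29.4%. These comparisons cross the batches. PDLIM3, FHDC1, GASK1B, PRSS12 and GUCY1B1 had the largest called rises in the controls among members with at least 1 CPM on average and no overlap (3.49, 2.71, 2.57, 2.33 and 1.74) and SLC7A11, RNF150, ELOVL6, CENPE and TMEM154 the largest falls (−2.17, −2.02, −1.66, −1.54 and −1.46), and each kept its direction with GC offsets. The adjusted p of GUCY1B1 ran from 0.00018 to 0.055 over its alternatives.

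The exposure effect at 30 weeks minus that at 15 weeks was below 0 in 151 of 185 members (median −0.26, and −0.31 against genes of like GC). Over all genes tested 49.87% were below 0 (median 0.0009). The coding genes of chromosome 4 before 100 Mb shared part of it, with 179 of 264 below 0 (median −0.18). By the test of this difference 9 members fell and 2 rose, where 2.08% and 2.66% of all genes did. Without exposed replicate 2 at 30 weeks the count went from 11 to 38, and the share of all genes called from 4.74% to 9.1%. Without control replicate 1 at 15 weeks the count was 7 and the share 2.47%. GUCY1B1 (−3.52 ± 0.68, 0.0051), PDLIM3 (−2.36 ± 0.45, 0.0044), PDE5A (−1.70 ± 0.31, 0.0035) and SPCS3 (−1.62 ± 0.28, 0.0022) were among those lower, and MGARP (1.44 ± 0.29, 0.0064) and TMEM154 (1.45 ± 0.28, 0.0045) were the 2 higher. The members' own exposure effects at 15 and at 30 weeks, which share no library, correlated at r = 0.36 across the 185 genes, against 0.23 across all genes. Here too all genes include non-coding genes and genes under the members' count minimum.

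The shift was not bounded by the start of the segment. Just inside the threshold of position, PPP3CA, SLC39A8 and NFKB1 changed by −0.83, −2.06 and −0.26 in the controls over 15 weeks and by −0.66, −1.24 and 0.13 in exposed against control cells at 30 weeks. Just outside it, LAMTOR3, DNAJB14 and H2AZ1 changed by −0.77, −0.83 and −0.46 and by −0.50, −0.44 and −0.70. Just inside the count threshold, C4orf51, TLR2 and ANXA10 reached 10 counts in 7 libraries, and just outside, TLL1, ASB5 and CFAP96 did in 6. Relative to genes of like GC, the median over bins of 10 Mb was below 0 in 9 of 9 bins from the segment's start in controls over 15 weeks (−0.51 to −0.21), and in 9 of 10 bins before it (−0.71 to 0.29). The exception was the first 10 Mb of the chromosome, where 72 genes had medians of 0.29 in controls and 0.14 in exposed cells.

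**Figure D5:**
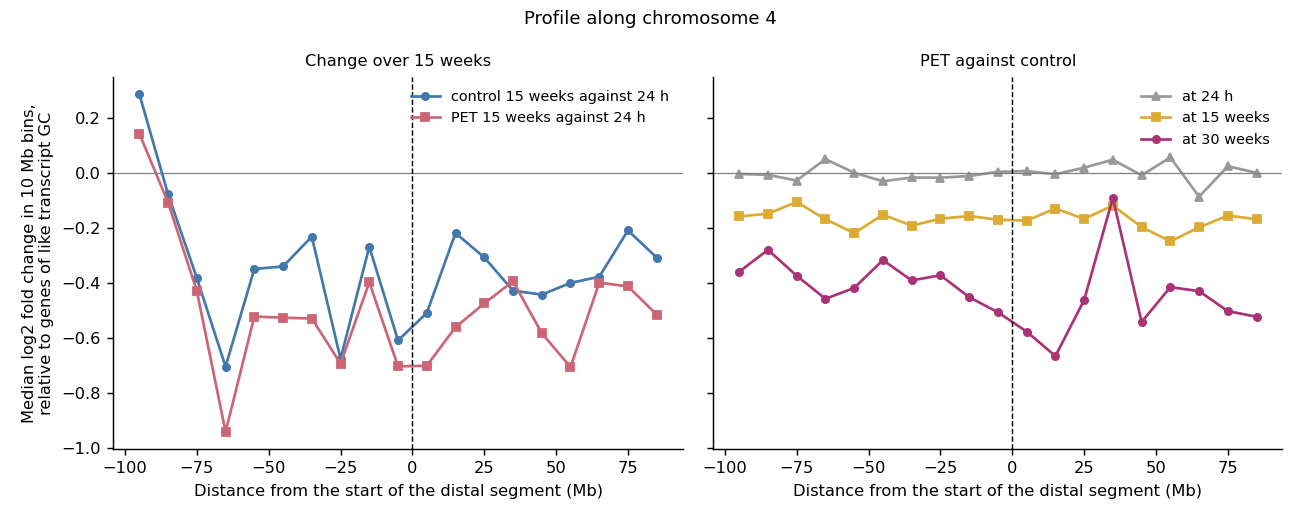
Median log2 fold change of coding genes in 10 Mb bins along chromosome 4, relative to genes off it of like transcript GC, against distance from the start of the distal segment (dashed line). Lines are comparisons over 15 weeks (left) and exposed against control cells at each time (right); on the left all bins but the first lie below 0, and on the right the 30-week line is below 0 in all 19 bins, lowest at −0.67.

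At 30 weeks exposed cells were below controls in all 19 bins of the chromosome, from −0.67 to −0.09 within the segment and from −0.51 to −0.28 before it, the smallest being a bin of 11 genes. The same held at 15 weeks with smaller medians, −0.25 to −0.11. The 264 coding genes before 100 Mb had a median of −0.30 at 30 weeks, with 81 lower and 14 higher, and 21 non-coding genes of the segment had a median of −0.46, with 8 lower and none higher. Set beside the other chromosomes, with chromosome 4 as 2 parts of 24, the members had the lowest median at 30 weeks (−0.37, and −0.50 against genes of like GC), next to the rest of chromosome 4, while chromosome 21 had the highest (0.62 and 0.56). In controls over 15 weeks chromosome 14 was lower than the members (−0.67 against −0.48). The fall was thus not shown to be particular to distal 4q: the rest of chromosome 4 shared the fall at 30 weeks, and from about 20 Mb on also that over 15 weeks.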

How the data were processed

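RNA of 15 BEAS-2B samples was analysed as raw counts per gene, which the authors deposited without normalization after filtering reads with Rfastp, mapping to GRCh38 and counting with Rsubread. The kit marks strand, and the counting strand is not given in the sources used here, so genes that overlap on opposite strands or have near-identical copies are uncertain. Entrez gene numbers were matched to symbols and positions of RefSeq GRCh38.p14 (27745 of 28395 matched), and transcript GC was taken from GENCODE transcripts.

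Counts were filtered with filterByExpr (16740 genes), scaled by TMM and fitted with edgeR 4.0.16 in R 4.3.3 (quasi-likelihood, 1 mean per condition over all samples, Benjamini-Hochberg over all genes, threshold 0.05). The other fits used DESeq2 1.42.0, limma 3.58.1 (voom) and sva 3.50.0, which gave 2 surrogate variables. Log2 CPM used a prior count of 2. Depth was 23143202 to 31459990 counts. No pair of replicates agreed within sampling noise. Same-numbered samples did not deviate together (correlations −0.12 to 0.30), so numbers were not used as pairs.

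The members and the lists of roles were chosen with earlier results of these data known. Named genes are members on the role lists, the 5 largest called changes in each direction with at least 1 CPM and no overlap (controls at 15 weeks against 24 h, controls at 30 against 15 weeks, exposed against controls at 30 weeks), the 5 members with the highest CPM, and the genes nearest each threshold, of which a few are not reported here. Medians relative to genes of like transcript GC or span, and the fit with GC offsets, were added after seeing the data. The procedure was tested on simulated data.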

Additional observations from a re-analysis of the deposited data

Results flagged for a closer look

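Of the 45 results compared over the 4 exposed samples at 30 weeks, 9 had 1 sample far from the others by Dixon's ratio, above its 95% critical value, and in all 9 it was replicate 2. Chance flags about 1 in 20 such groups, and the 9 are not independent, since genes share libraries. The members' shift was −0.62 in replicate 2, above the other 3 samples (ratio 0.868), and against genes of like GC it was −0.46 with a ratio of 0.557. Replicate 2 was the highest for SPCS3 (159 CPM), HMGB2 (159.6 CPM), CCNA2 (129 CPM), UBE2D3 (159 CPM), ABCE1 (126.0 CPM) and PLRG1 (81.0 CPM), and the lowest for RNF150 (5.33 CPM) and CASP6 (10.2 CPM).

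For 8 named genes the effect of exposure differed between 30 and 15 weeks by the test of that difference (log2, edgeR adjusted p). It was lower at 30 weeks for GUCY1B1 (−3.52, 0.0051), PRSS12 (−2.74, 0.013), PDLIM3 (−2.36, 0.0044), FAM241A (−1.85, 0.014), PDE5A (−1.70, 0.0035) and SPCS3 (−1.62, 0.0022), and higher for TMEM154 (1.45, 0.0045) and MGARP (1.44, 0.0064). PRSS12 was the 1 of them with an effect above 0 at 15 weeks beyond 1 SE and below 0 at 30 weeks (1.35 ± 0.50 and −1.39 ± 0.34), and the 15-week effect did not pass the threshold.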

How the results depend on the processing

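The members' median at 30 weeks kept its sign in all 23 alternatives (−0.52 to −0.34), and those over 15 weeks in controls and in exposed cells in all 19. The cause of the changes below was not tested, except where fewer samples or a stricter threshold lower a count by construction. With limma-voom and surrogate variables 124 members were called at 30 weeks, 133 in controls over 15 weeks (median −0.53) and 48 for the difference of effects, where the share of all genes called went from 23.7%, 24.9% and 4.74% to 33.8%, 38.7% and 11.8%. With each time point fitted alone 4 were called at 15 weeks and 51 at 30 weeks (1.96% and 15.3% of all genes), and at an adjusted p under 0.01 there were 50 at 30 weeks and 7 for the difference (12.9% and 2.41%). The median of controls over 15 weeks was −0.41 with upper-quartile scaling and −0.44 for starts at or above 110 Mb, where the 15-week controls' mean shift was −0.43. Leaving out each library in turn gave 60 to 127 members at 30 weeks, 56 to 64 in controls and 59 to 66 in exposed cells over 15 weeks, 59 to 121 in exposed cells from 15 to 30 weeks and 7 to 38 for the difference, with medians of −0.065 to 0.016 at 24 h and −0.54 to −0.43 in controls over 15 weeks. The share of all genes called also moved with the library left out, so these ranges are not particular to the members. Without exposed replicate 2 at 30 weeks, 18% of all genes fell and 16.2% rose at 30 weeks, against 11.7% and 12.0% with every library. Against genes of like GC the medians were 0.010 at 24 h, −0.17 at 15 weeks, −0.38 in controls over 15 weeks, and 0.34 in controls and 0.039 in exposed cells from 15 to 30 weeks. With GC offsets they were 0.0047, −0.17, −0.40, 0.33 and 0.0064, and 125 members were called at 30 weeks (25.3% of all genes). Against genes of like span the control median from 15 to 30 weeks was 0.14.

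With the replicate block 72 members were called at 30 weeks (77 without it), 86 in controls and 89 in exposed cells over 15 weeks, 87 and 77 from 15 to 30 weeks, and 10 for the difference. The numbers were not shown to pair the samples, and the block moved no count of called members by over 1.5 times. The shares of all genes called with the block are not given here, so these counts do not set the members apart from other genes.

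Of 959 alternatives of named genes 893 kept direction and side of the threshold, 18 lost the threshold, 29 gained it and 19 changed sign, the last in genes near 0 at 30 weeks. RAPGEF2 was −0.052 with surrogate variables, −0.046 with GC offsets, and −0.083 to 0.12 with a library left out. LRBA was −0.016 with surrogate variables, −0.0036 with upper-quartile scaling, −0.11 with GC offsets, and −0.084 to 0.12 with a library left out. NAA15 was 0.0037 without a filter on low counts, 0.0027 without the 6 small RNAs, 0.034 with the replicate block, and −0.19 to 0.078 with a library left out, and PLRG1 was −0.47 to 0.051 with a library left out. At the depth of the 30-week controls 3 counts stood for up to 0.129 CPM, so fold changes of members near that level are imprecise.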
